A study of Drosophila melanogaster with 12 samples.

Results

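The genes described here encode subunits of the proteasome, the protease that destroys ubiquitin-tagged proteins. They were taken from the deposited expression table by name, as rows whose symbol begins with Prosalpha, Prosbeta, Pros followed by a digit, Rpn followed by a digit, or Rpt followed by a digit. The rule found 41 of the 15104 genes in the table. By their current names, 28 rows are subunits of the standard particle (called constitutive subunits below) and 13 are paralogues of such subunits.

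The flies carried UAS-GFP-L10A, a GFP-tagged protein of the large ribosomal subunit, together with a Gal4 driver on the 2202U background. The driver was Elav-Gal4 for neurons, repo-Gal4 for glia or takeout-Gal4 for fat body, which stores nutrients and secretes blood proteins and immune peptides. The genotypes were Elav-Gal4/+;UAS-GFP-L10A/+, repo-Gal4/+;UAS-GFP-L10A/+ and UAS-GFP-L10A/+;takeout-Gal4/+. Lysates of 1000 adult heads were purified with an antibody against GFP, which gave an IP for neurons, glia and fat body, and RNA of the same lysates gave the Input of each of these 3 driver lines. All groups carried the tagged protein, so no lysate lacked it, and a Gal4 driver marks whichever head cells are active for it. The 12 samples formed 6 groups of 2 biological replicates, and polyA RNA was sequenced. Adult is the only age given for the flies, and their sex is not given.

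The proteasome has a barrel-shaped core, called 20S, and a cap, called 19S. The outer alpha rings of the core gate the entry of substrates, and the inner beta rings hold the proteolytic sites, which lie in the subunits beta1, beta2 and beta5. In the cap a ring of Rpt ATPases unfolds the substrate, and the Rpn subunits recognise ubiquitin, hold the cap together and, in Rpn11, cut the ubiquitin chain off. In neurons the particle clears damaged proteins and trims synapses, and it works in every other cell type too. In Drosophila melanogaster many subunits have a duplicate gene that is known to be used in the male germ line.

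Each value below is the authors' FPKM (fragments per kilobase, scaled to the mapped library), 1 per gene and group, with both replicates already combined. No standard deviation, interval or replicate count therefore goes with any value, and the depth behind it is unknown. Of the 41 rows 39 reached 1 FPKM in at least 1 group and were analysed, as were 11181 genes of the whole table. The rows left out were Prosalpha3T, a paralogue, and Prosalpha1. Log2 ratios are of FPKM plus 1, which understates the ratio of low genes.

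The marker genes of each label were read first. Of the 6 glia markers 5 were at least 2-fold higher in the glial IP than in its Input, where 18.6% of all genes analysed were. Among them repo stood at 141 against 22.4 FPKM. The log2 ratios of the 5 ran from 1.11 for moody to 3.29 for wrapper. The 2 scalings described below shift the glial ratio by -0.51 and -0.75, so this count depends on the scale. All 7 fat body markers were at least 2-fold higher in the fat body IP than in its Input, where 27.3% of all genes analysed were. The log2 ratios of the 7 ran from 1.13 for Yp1 to 3.47 for Lsp2. The 2 scalings described below shift this ratio by -0.87 and -1.49, so the count depends on the scale. Among the 7, to (takeout) is the gene whose driver marks fat body here. It had 44.4 FPKM in the fat body IP against 12.5 in its Input, and also 55.8 FPKM in the glial IP against 9.32 in its Input. Of the 6 neuron markers 5 were at least 2-fold lower in the neuronal IP than in its Input, where 13.0% of all genes analysed were. Among them elav stood at 3.48 against 15.0 FPKM. The neuronal IP thus goes against its label by the neuron markers. The summed level of the 6 was nevertheless 505 FPKM in the neuronal IP, above the 89.0 FPKM of the glial IP and the 171 FPKM of the fat body IP. The 3 photoreceptor markers summed to 29650 FPKM in the neuronal IP, against 11919 in its Input. The glia Input stood apart from the other lysates in male genes. By FPKM without 1 added, 12 of 13 testis markers were at least 2-fold higher in the glia Input than in the neuron Input. Of the 11181 genes analysed 1631 were so by that measure. With 1 FPKM added, 10 of the 11 markers that reached 1 FPKM in a group were, where 10.2% of all genes were. Tektin-C was the exception at 3.96 against 34.0 FPKM. The list summed to 526 FPKM in the glia Input against 131 and 130 FPKM in the neuron and fat body Inputs. In bulk RNA fewer cells of a type and less RNA per cell cannot be told apart. The 6 markers of accessory gland and ejaculatory duct summed to 1336 FPKM in the glial IP, against 23.9 in the neuronal IP and 30.4 in the fat body IP. Dup99B and Anp held 651 and 567 FPKM of the glial sum, and the others had 1.08 to 59.5 FPKM each.

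Constitutive subunit genes were among the more highly expressed genes in all groups. Over the 27 analysed rows the median was 112 FPKM in the neuronal IP, 97.4 in the glial IP and 184 in the fat body IP, against 94.0 in the neuron Input, 70.1 in the glia Input and 83.5 in the fat body Input. That median lay above 90.7% to 92.7% of the genes analysed in each group. The highest row exceeded the lowest by 3.36-fold to 3.85-fold in the Inputs, 5.14-fold in the neuronal IP, 4.84-fold in the glial IP and 7.60-fold in the fat body IP. All 41 rows together made up 0.368%, 0.348% and 0.309% of the FPKM sum in the IPs of neurons, glia and fat body, and 0.374%, 0.322% and 0.375% in the Inputs of the same lines. The FPKM sum was 839267, 839886 and 1704813 in the IPs of neurons, glia and fat body, so the columns are not on a like scale. Without ribosomal protein genes the 41 rows made up 0.447%, 0.441% and 0.457% in the IPs and 0.513%, 0.467% and 0.530% in the Inputs, so each IP gave these rows a smaller share than the Input of its line.

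Genes of the core stood above genes of the cap. Per length, the median of the 12 core rows was 1.41 times that of the 15 cap rows in the neuronal IP, 1.97 times in the glial IP and 2.16 times in the fat body IP, against 1.36, 1.69 and 1.56 times in the Inputs of neurons, glia and fat body. The 6 beta rows spanned a 1.26-fold range in the glial IP (132 to 166 FPKM), a 1.48-fold range in the neuronal IP and a 2.01-fold range in the fat body IP, where Prosbeta1 lay far above the others. The non-ATPase rows of the cap ranged from 37.4 FPKM for Rpn2 to 97.7 FPKM for Rpn12 in the glial IP.

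**Figure D1:**
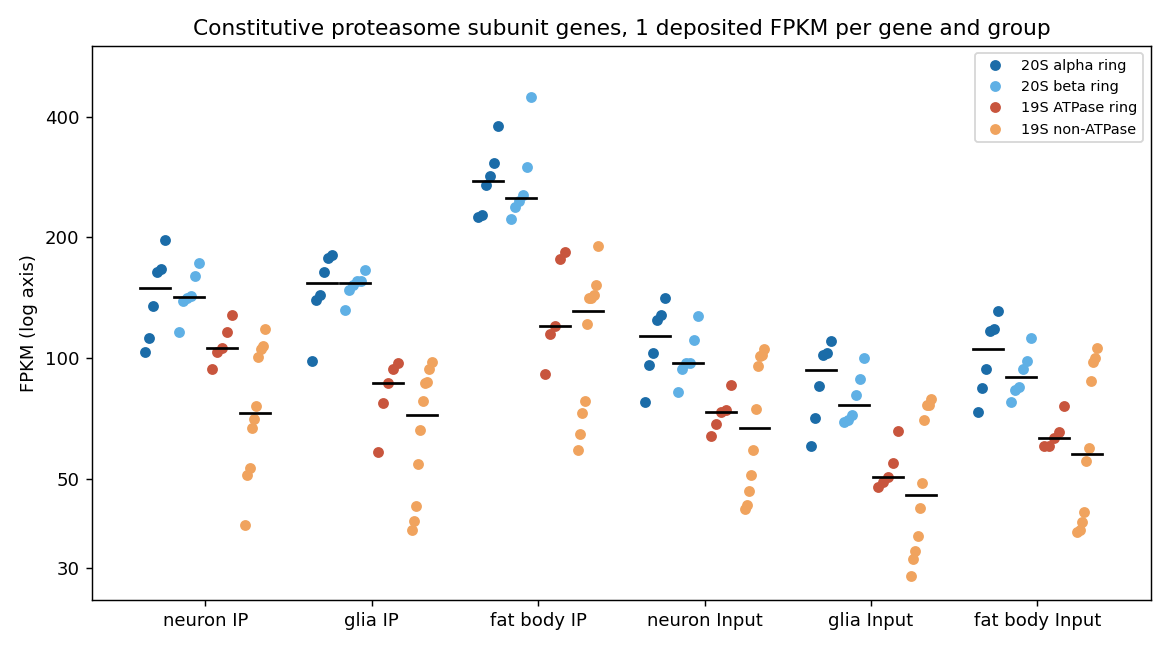
FPKM of the 27 analysed constitutive subunit genes (log axis) in the 6 groups, each point 1 gene with the replicates combined by the authors, coloured by its place in the particle, with a bar at the median of each kind. The medians of the core rings lie above those of the cap kinds in every group, and the fat body IP holds the highest points, led by Prosbeta1 at 448 FPKM.

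Some rows carry older symbols, and the current name follows in brackets where it differs. In the alpha ring, Pros25 (Prosalpha2) had 197, 178 and 379 FPKM in the IPs of neurons, glia and fat body and 141, 110.1 and 131 FPKM in the Inputs of the same lines. It was the highest constitutive row in each Input. Pros29 (Prosalpha3) had 164, 181 and 307 FPKM in the IPs and 124, 102 and 118 in the Inputs. Pros35 (Prosalpha6) was the lowest alpha row in every group, with 103, 98.2 and 225 FPKM in the IPs and 77.6, 60.3 and 73.3 in the Inputs. Pros28.1 (Prosalpha4), Prosalpha5 and Prosalpha7 lay between, from 112 to 284 FPKM in the IPs and from 71.0 to 128 in the Inputs. The row of Prosalpha1, which also belongs to the ring, was listed at 0.0249, 0.0860 and 0.209 FPKM in the IPs, at 0.00916 and 0.00562 in the neuron and glia Inputs and at 0 in the fat body Input. A later annotation places Prosalpha1R, a paralogue of nearly the same length (952 against 969 bases), next to Prosalpha1 with 0 genes between them, and that row (CG30382 in the table) was listed at 0.118 to 0.516 FPKM. How the authors treated reads that map to several places is not stated in the sources used here, so the level of Prosalpha1 is uncertain.

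In the beta ring, Prosbeta5, the subunit with chymotrypsin-like activity, had 172, 156 and 247 FPKM in the IPs of neurons, glia and fat body and 94.0, 72.2 and 83.5 in the Inputs. Prosbeta2, with trypsin-like activity, had 141, 152 and 238 FPKM in the IPs and 97.2, 69.4 and 85.0 in the Inputs. Prosbeta1, with caspase-like activity, had 139 and 166 FPKM in the neuronal and glial IPs and 448 in the fat body IP, against 97.3, 88.6 and 98.6 in the Inputs. The 3 proteolytic subunits were therefore close to one another in each Input and in the glial IP, and Prosbeta1 stood far above the other two in the fat body IP. The structural subunits Prosbeta3, Pros26 (Prosbeta6) and Prosbeta7 ranged from 116 to 160.4 FPKM in the neuronal IP, 132 to 155 in the glial IP and 222 to 299 in the fat body IP.

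In the ATPase ring, Rpt1 had 128, 94.2 and 176 FPKM in the IPs of neurons, glia and fat body and 85.5, 65.8 and 76.1 in the Inputs. Pros26.4 (Rpt2), whose tail opens the gate of the core in yeast, had 104, 97.4 and 184 FPKM in the IPs and 68.4, 54.8 and 65.6 in the Inputs. Rpt3 differed from both in being no higher in the fat body IP than in the neuronal IP, with 94.0, 58.5 and 91.5 FPKM in the IPs and 74.4, 47.7 and 63.3 in the Inputs. Pros45 (Rpt6) was alike, with 116, 86.7 and 115.1 FPKM in the IPs and 73.5, 50.6 and 60.5 in the Inputs. Rpt4 had 106, 77.4 and 120.2 FPKM in the IPs and 64.1, 49.2 and 60.5 in the Inputs.

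Among the non-ATPase subunits, Rpn11, the deubiquitinase of the lid, had 101, 94.0 and 189.8 FPKM in the IPs of neurons, glia and fat body and 101, 76.6 and 100.1 in the Inputs. Rpn6, a scaffold that clamps cap to core, had 75.9, 78.2 and 144 FPKM in the IPs and 102, 76.6 and 98.0 in the Inputs, so it was lower in the neuronal IP than in its Input. Rpn2, a large scaffold of the base, was lower in the neuronal IP as well, with 38.3, 37.4 and 58.9 FPKM in the IPs and 46.7, 36.1 and 41.3 in the Inputs. Rpn1, the other large scaffold and a docking site for ubiquitin shuttles, had 51.3, 42.8 and 78.1 FPKM in the IPs and 41.98, 31.6 and 37.4 in the Inputs. The ubiquitin receptor Pros54 (Rpn10) had 118, 86.7 and 141 FPKM in the IPs and 95.4, 70.1 and 87.8 in the Inputs. The remaining lid genes Rpn3, Rpn5, Rpn7, Rpn9 and Rpn12 lay between 39.3 and 152 FPKM in the IPs and between 28.6 and 106 in the Inputs.

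Each IP was set against its own Input to ask whether tagged ribosomes held more or less of these transcripts than the whole head did. No replicate test exists for these comparisons, and rows with at least a 2-fold ratio were counted. In the neuronal IP 0 of 39 analysed rows were at least 2-fold higher than in the Input, where 18.9% of all genes analysed were. 1 row was at least 2-fold lower, the paralogue Rpt6R (13.0% of all genes). The constitutive rows had a median log2 of 0.38, from -0.42 for Rpn6 to 0.87 for Prosbeta5, and 24 of 27 were above 0. Over all genes analysed the median was -0.0036, and over the 5599 genes that reached 5 FPKM in all 6 groups (well expressed genes) it was 0.40, so the subunit genes lay near the median of genes of such levels.

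In the glial IP Prosbeta2 (log2 1.12) and Prosbeta5 (1.10) were at least 2-fold higher than in the Input, 2 of 39 rows, where 18.6% of all genes were. The 4 rows at least 2-fold lower were the paralogues Prosbeta4R2, Prosbeta5R, Rpn12R and Rpt6R (19.6% of all genes). Under median and total scaling 0 rows were higher, where 9.52% and 7.14% of all genes were, and 10 and 12 were lower, where 31.7% and 36.6% were. All 27 constitutive rows were above 0, from 0.030 for Rpn6 to 1.12 for Prosbeta2, with a median of 0.69 against 0.042 over all genes and 0.49 over well expressed genes. The glia Input held less of these transcripts than the other lysates did. Against the mean of the neuron and fat body Inputs, the median of the constitutive rows in the glial IP was 0.37, against 0.11 over all genes and 0.32 over well expressed genes. By that measure 0 rows were at least 2-fold higher and 1, Rpt6R, was lower, where 15.5% and 17.4% of all genes were.

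In the fat body IP 17 of 39 rows were at least 2-fold higher than in the Input, where 27.3% of all genes were, and 0 were lower, where 10.1% were. The 17 rows were all 12 of the core and 5 of the 15 of the cap, namely Rpt1, Pros26.4, Rpn1, Rpn3 and Rpn12. The constitutive rows had a median log2 of 1.20, against 0.088 over all genes and 0.82 over well expressed genes, from 0.41 for Rpn9 to 2.17 for Prosbeta1. The scale of the columns carries these counts. Scaled so that well expressed genes centre on the same level in every group (median scaling), 1 row was higher and 2 were lower, where 9.97% and 26.7% of all genes were. Scaled to equal sums without ribosomal protein genes (total scaling), 0 were higher and 4 lower, where 4.18% and 43.2% of all genes were. These scalings shift the log2 IP/Input of every gene by -0.59 and -0.58 for neurons, -0.51 and -0.75 for glia and -0.87 and -1.49 for fat body. The median of the constitutive rows thus became negative in neurons under both (-0.20 and -0.19), and in glia (-0.060) and fat body (-0.27) under total scaling. Over all genes it was -0.40 and -0.41 in neurons under the same scalings. Under total scaling it was -0.57 in glia and -0.84 in fat body. The median of the subunit rows thus stayed above that of all genes, many of which are low. On the deposited scale the subunit median minus that of well expressed genes was -0.022 in neurons, 0.20 in glia and 0.38 in fat body. In neurons the subunit rows therefore did not stand above well expressed genes.

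**Figure D2:**
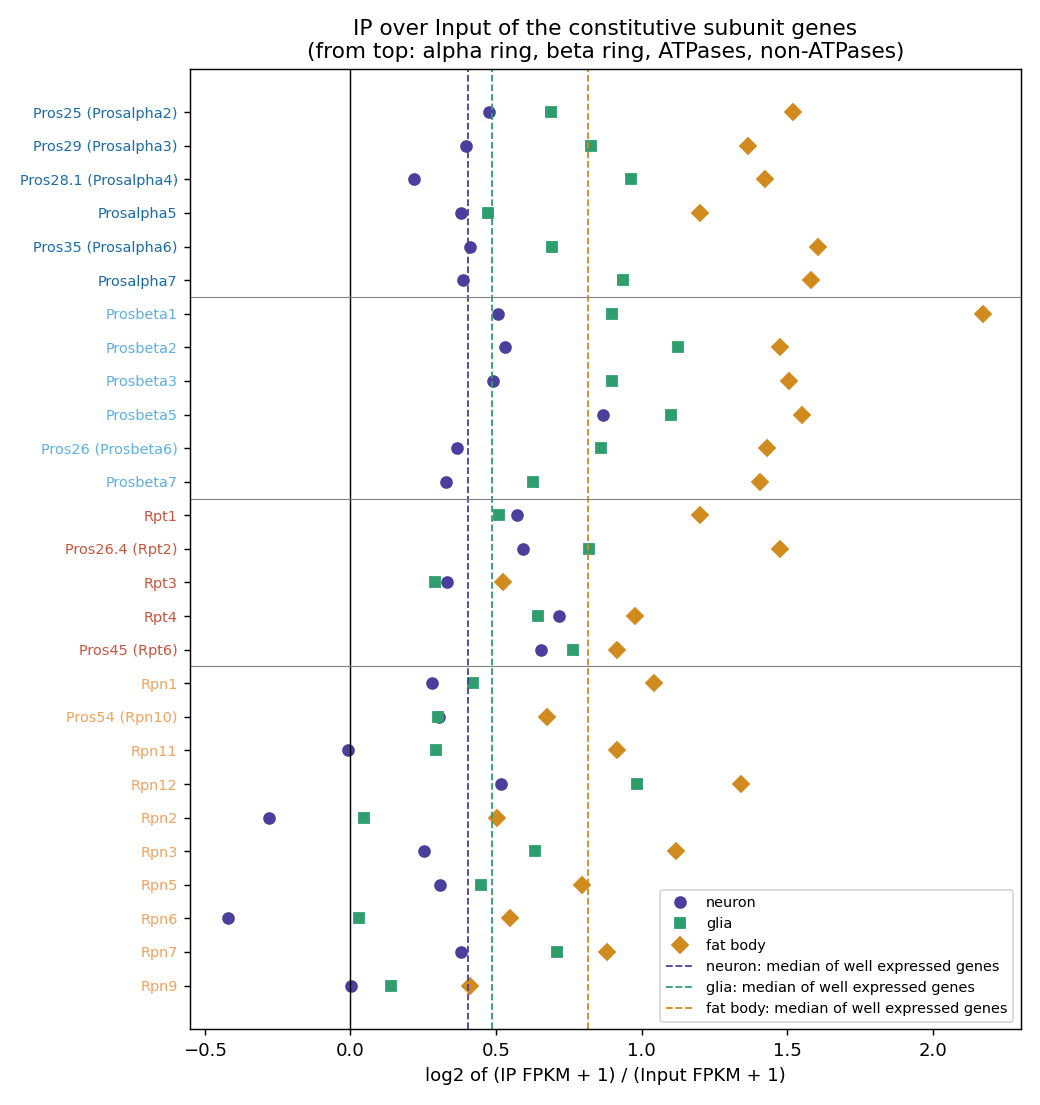
Log2 IP/Input of the 27 constitutive subunit genes in neurons, glia and fat body, 1 point per gene and cell type, with a dashed line at the median of well expressed genes in each (0.40, 0.49 and 0.82). The fat body point is the rightmost for each of the 27 genes on the deposited scale, and the separation between core and cap genes is wider in glia and fat body than in neurons.

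The contrast between core and cap does not rest on the scale of the columns, because both are read in the same ratio. In the glial IP the median log2 IP/Input was 0.88 for the core rows and 0.45 for the cap rows, a difference of 0.43. In the fat body IP it was 1.49 for the core and 0.92 for the cap, a difference of 0.58. In the neuronal IP the difference was 0.10, with 0.40 for the core and 0.31 for the cap. There the ATPase ring had the highest median of the 4 kinds of subunit (0.59).

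Core transcripts are shorter than cap transcripts, and transcript length moved with the ratio. In a later annotation the longest transcript of the core genes had a median of 974.5 bases (852 to 1215) and that of the cap genes 1553 bases (995 to 3412). Across the 27 genes Spearman's rho between length and log2 IP/Input was -0.41 in neurons, -0.64 in glia and -0.71 in fat body, and across 5311 well expressed genes with a length it was -0.41, -0.43 and -0.49. The points share their libraries, and rho is a description of these genes. Within the core rho was -0.27 in neurons, 0.26 in glia and -0.11 in fat body, and within the cap it was -0.43, -0.45 and -0.24. Of the cap genes within the length range of the core, Rpn12 at 995 bases had 0.99 in glia and 1.34 in fat body, which lie among the core values, and Rpn11 at 1208 bases had 0.29 and 0.92, which lie below every core value. The part of length in the contrast between core and cap was not tested.

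**Figure D3:**
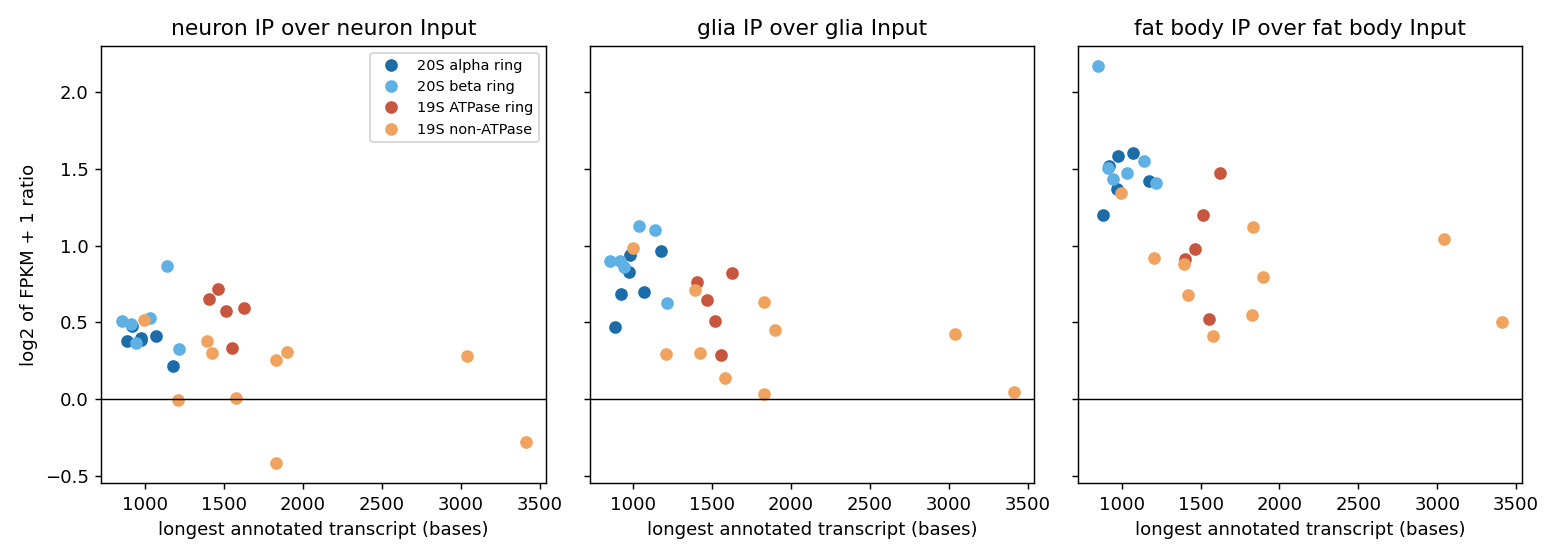
Log2 IP/Input of the 27 constitutive subunit genes against the length of the longest annotated transcript, in 3 panels for neurons, glia and fat body. Core genes (blue) lie at 852 to 1215 bases and cap genes (red and orange) at 995 to 3412 bases, with lower ratios at greater length most visible for fat body.

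The IPs were compared with one another to ask how the ribosome-bound transcripts of the cell types differ. For these pairs the authors' deposited table gives a q-value per gene, and a row counted as changed where that q was under 0.05, with the direction read from FPKM. Pairs that include the same IP share its libraries. Between glia and fat body, 26 of 39 rows were lower in the glial IP by the q of the authors' deposited table, where 31.6% of all genes were, and 0 were higher, where 12.9% were. All 26 were constitutive, and Rpn7 was the only constitutive row analysed that did not pass (log2 -0.41, q = 0.200 in the authors' deposited table). The difference was largest for Prosbeta1, with 166 FPKM in the glial IP against 448 in the fat body IP (log2 -1.43, q = 7.78e-14 in the authors' deposited table). Pros35 followed at 98.2 against 225 FPKM (-1.19, q = 6.87e-13 in the authors' deposited table), then Pros25 (-1.09) and Rpn11 (-1.01). Rpt3 and Pros45 differed by -0.64 and -0.40, and the median over the 27 rows was -0.76, against -0.24 over all genes and -0.43 over well expressed genes. The direction depends on the scale. Under median scaling 25 of the 26 rows were lower in the glial IP, where 31.1% of all genes were. Under total scaling 11 were lower and 15 higher, where 22.6% and 22.0% of all genes were. The median over the 27 rows was -0.30 and 0.035 under these scalings, against 0.099 and 0.32 over all genes.

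Between neurons and fat body, 4 of 39 rows were lower in the neuronal IP by the q of the authors' deposited table, where 11.9% of all genes were, and 0 were higher, where 9.32% were. All 4 were core genes. Prosbeta1 had 139 FPKM in the neuronal IP against 448 in the fat body IP (log2 -1.68, q = 0.00382 in the authors' deposited table). Pros35 had 103 against 225 FPKM (-1.11, q = 0.0316 in the authors' deposited table). Prosalpha7 and Pros28.1 followed at -1.07 and -1.02 (q = 0.0366 and 0.0478 in the authors' deposited table). The 12 core rows had a median of -0.91 and the 15 cap rows one of -0.46, and the ATPases Rpt3 and Pros45 stood at 0.038 and 0.016. Under median and total scaling all 4 remained lower in the neuronal IP. The median over the 27 rows was -0.75, against -0.11 over all genes, and -0.023 under total scaling, where it was 0.40 over all genes.

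Between neurons and glia, 0 of 27 constitutive rows passed, and 15.5% of all genes were higher and 15.3% lower in the neuronal IP by the q of the authors' deposited table. The lowest q of a constitutive row belonged to Rpt3, with 94.0 FPKM in the neuronal IP against 58.5 in the glial IP (log2 0.68, q = 0.247 in the authors' deposited table). The median was 0.10 over the 27 rows, 0.14 over all genes and 0.34 over well expressed genes. All 5 ATPase rows had positive values (median 0.44), as had 14 of 15 cap rows (median 0.27), while the core rows had a median of -0.078 with 7 of 12 negative. Median scaling shifts these values by -0.34, and the median over the 27 rows was then -0.23, against -0.11 over all genes. None of these values shows that the subunit genes were equal in neurons and glia.

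**Figure D4:**
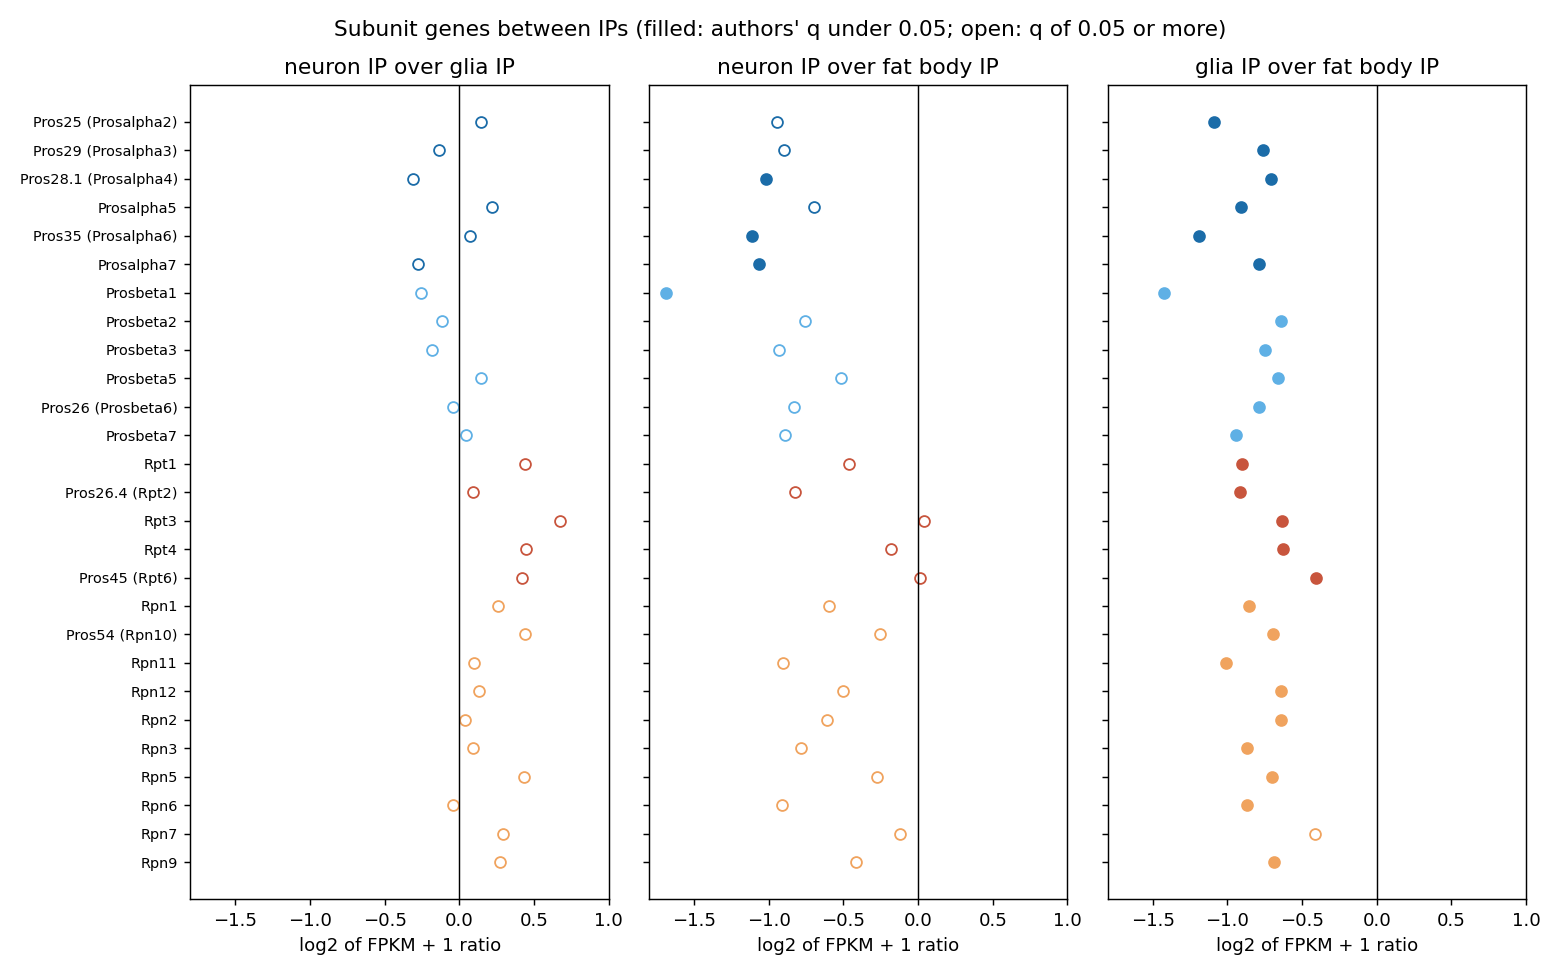
Log2 ratio between IPs for the 27 constitutive subunit genes, in panels for neuron over glia, neuron over fat body and glia over fat body, filled where the q of the authors' deposited table is under 0.05. Filled points number 0, 4 and 26, and all filled points lie left of 0 on the deposited scale.

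Each IP/Input ratio was also set against that of another cell type. The log2 IP/Input of neurons minus that of fat body was at most -1 for 8 of 39 rows, all of them core genes, where 18.3% of all genes were, and at least 1 for the paralogue Rpt3R (9.7% of all genes). For glia minus fat body Prosbeta1 alone was at most -1 (-1.27), where 15.2% of all genes were, and 0 rows were at least 1 (9.9% of all genes). For neurons minus glia 0 rows were at most -1 (16.1% of all genes) and Rpt3R was at least 1 (13.4% of all genes). On the deposited scale the fat body value was the highest of the 3 for each of the 27 constitutive rows. Under total scaling 0 rows were at most -1 for neurons minus fat body.

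The order of the subunit genes by level was closest among the Inputs and between the glia and fat body IPs. Across the 27 constitutive genes Spearman's rho was 0.966 to 0.972 between pairs of Inputs and 0.973 between the glia and fat body IPs, against 0.885 between the neuronal and glial IPs and 0.840 between the neuron and fat body IPs. Between an IP and an Input it ranged from 0.717, for the neuronal IP with the fat body Input, to 0.880, for the fat body IP with the glia Input. Over the 5599 well expressed genes rho was 0.976 to 0.986 between Inputs, 0.790 between the glia and fat body IPs, 0.679 between the neuronal and glial IPs, 0.712 between the neuronal and fat body IPs and 0.712 to 0.763 between an IP and an Input. The points of each value share their libraries, and the values are descriptions.

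The paralogues of subunit genes were low everywhere and behaved otherwise than the constitutive rows. The 13 rows are the alpha forms Prosalpha3T, Pros28.1A, Pros28.1B (Prosalpha4T2) and Prosalpha6T, the beta forms Prosbeta2R1, Prosbeta2R2, Prosbeta4R1, Prosbeta4R2 and Prosbeta5R (Prosbeta5R1), the ATPase forms Rpt3R, Rpt4R and Rpt6R, and the lid form Rpn12R. Their values were 5.28 FPKM or less in every group. Prosbeta5R had 0.233, 1.62 and 0.945 FPKM in the IPs of neurons, glia and fat body. In the Inputs it had 5.27 FPKM for glia, against 0.900 for neurons and 1.51 for fat body. Prosalpha6T had 0.430, 2.96 and 1.19 FPKM in the IPs. In the Inputs it had 4.21 FPKM for glia, against 1.02 for neurons and 1.35 for fat body. The glia lysate was the highest Input for both.

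With 1 FPKM added, 6 paralogues were at least 2-fold higher in the glia Input than in the neuron Input, where 10.2% of all genes were, and 5 were so against the fat body Input (7.97% of all genes). Of the 12 analysed paralogues 6 reached 1 FPKM in the glia Input alone, among them Prosbeta4R1, Prosbeta4R2 and Rpn12R, so those counts are partly set by the minimum. Of the 6 paralogues that reached it elsewhere, Pros28.1B did so only in the glial IP, at 1.20 FPKM. Of these 6, Pros28.1B, Prosalpha6T and Prosbeta5R were at least 2-fold higher in the glia Input than in either other Input. Under the same minimum 8.12% of genes were so against the neuron Input and 7.35% against the fat body Input. None of the 27 constitutive rows was. Among all 13 rows, and with no 1 FPKM added, the glia Input exceeded the neuron Input in 12, where it did in 2829 of 11181 genes analysed. The 12 ranged from 1.67-fold for Rpt4R to 6.16-fold for Prosbeta4R2. Rpt6R was the exception with 4.61 FPKM in the glia Input against 4.81 in the neuron Input and 5.28 in the fat body Input. The median ratio of the 13 rows was 4.12-fold over the neuron Input, where that of all genes analysed was 0.83-fold, and 3.11-fold over the fat body Input. The testis markers had median ratios of 5.18-fold and 3.83-fold, with Mst87F at 94.8 FPKM in the glia Input against 18.3 and 22.3 in the neuron and fat body Inputs. The part of male tissue in the paralogue values was not tested. Between the neuron and fat body Inputs 0 of 39 rows differed 2-fold in either direction (0.519% of all genes higher and 0.42% lower in the neuron Input).

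The constitutive rows had the opposite sign in the same lysate. All 27 were lower in the glia Input than in the neuron Input, as were 8330 of 11181 genes analysed and 5011 of 5599 well expressed genes. The median log2 of the 27 was -0.40, against -0.23 over all genes and -0.28 over well expressed genes. All 27 were also lower than in the fat body Input, as were 7498 of all genes and 4379 of the well expressed. The median there was -0.25, against -0.084 over all genes and -0.11 over well expressed genes. None of the 27 reached 2-fold, where 0.984% and 0.331% of all genes were at least 2-fold lower. Under median scaling the median against the neuron Input was -0.14 and 25 of 27 rows were lower.

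In the IPs 5 paralogues, Pros28.1B, Prosalpha6T, Prosbeta4R1, Prosbeta4R2 and Prosbeta5R, were lower in the neuronal IP than in the glial IP by the q of the authors' deposited table, 5 of 39 rows where 15.3% of all genes were. Prosalpha6T had the lowest q there, 0.00171 in the authors' deposited table, with 0.430 FPKM in the neuronal IP against 2.96 in the glial IP. With a minimum of 5 FPKM 1 of these 5 is left, Prosbeta5R. Prosbeta4R1 and Prosbeta4R2 reached 1 FPKM in the glia Input alone, and Pros28.1B only there and in the glial IP. Of the 11 analysed testis markers 10 were lower in the neuronal IP than in the glial IP by the same q. Those 11 markers include Tektin-C, which was higher in the neuronal IP. All 13 paralogues were lower in the glial IP than in the glia Input, as were 5415 of 11181 genes analysed. Of the 13 paralogues 6 entered the analysis through that Input alone. Against the mean of the neuron and fat body Inputs 8 of the 12 analysed were higher in the glial IP. The median log2 over all genes by that measure was 0.11, so most genes analysed were higher too.

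Rpt3R was the only paralogue that was higher in the neuronal IP (1.33 FPKM) than in the glial IP (0.563), the fat body IP (0.504) and its own Input (0.712). It did not pass between IPs (q = 0.186 against glia and 0.309 against fat body in the authors' deposited table), and its exons share 20 bases with Alg12 on the opposite strand.

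**Figure D5:**
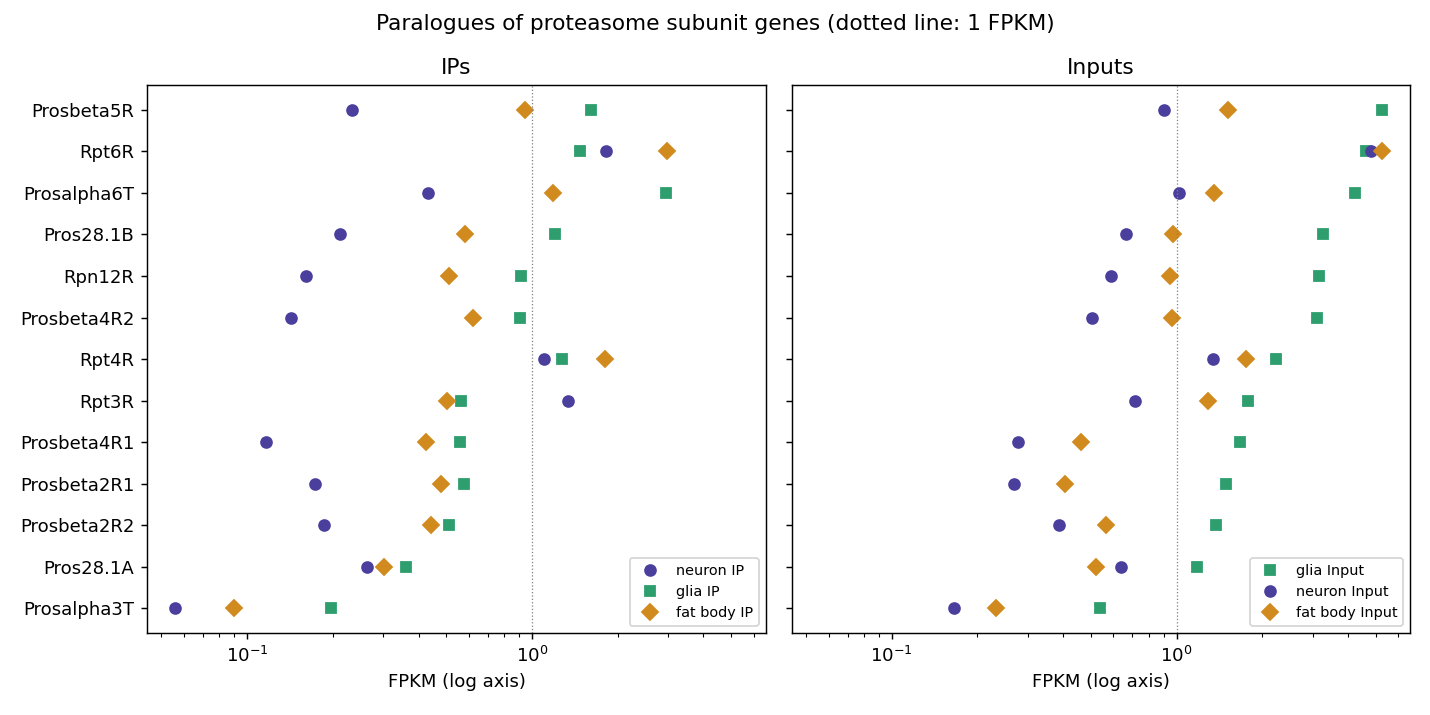
FPKM (log axis) of the 13 paralogues in the 3 IPs (left) and the 3 Inputs (right), 1 point per gene and group, with a dotted line at 1 FPKM. In the Inputs the glia point is the highest for each gene except Rpt6R, and in the IPs most neuron points lie to the left of the others.

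Several constitutive genes overlap a neighbour. Exons of 11 of 28 share 11 to 182 bases with a gene on the opposite strand in the later annotation, and whether the libraries keep strand is not stated in the sources used here. Rpn7 overlaps CG34376, which had 100.3 FPKM in the fat body IP against 20.8 in its Input, and Rpn9 overlaps CG10365, which had 101 against 52.7. Pros26.4 overlaps CG31142, which had 39.6 FPKM in the fat body IP against 12.6 in its Input. Rpt4 overlaps wuho (40.6 against 12.5) and Prosbeta3 overlaps CG11980 (68.0 against 18.2). The fat body values of these subunit genes are therefore uncertain by the reads such overlaps can add. Prosbeta1 shares 11 bases with CG8389, which had 28.2 FPKM in the fat body IP against 13.3 in its Input.

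Subunits of the standard particle that the table lists under other names gave like values, apart from CG13779 (Sem1). Mov34 (Rpn8), the partner of Rpn11, had 101, 96.7 and 139.5 FPKM in the IPs of neurons, glia and fat body and 73.5, 55.4 and 63.01 in the Inputs. Tbp-1 (Rpt5) had 63.8, 55.3 and 97.3 FPKM in the IPs and 54.7, 36.8 and 45.0 in the Inputs. CG17331 (Prosbeta4) and CG13349 (Rpn13), chosen after their values were seen, had 162, 168 and 277 and 81.5, 81.9 and 133 FPKM in the IPs, against 108, 79.1 and 82.5 and 77.2, 69.0 and 77.5 FPKM in the Inputs. All 4 of these were lower in the glial IP than in the fat body IP by the q of the authors' deposited table, where 31.6% of all genes were. Their log2 ratios ran from -0.80 for Tbp-1 to -0.52 for Mov34. Total scaling shifts this ratio by 0.80, so the direction depends on the scale. CG13779 (Sem1), a lid subunit, had 473 FPKM in the glial IP against 590.2 in the fat body IP. It did not pass (q = 0.108 in the authors' deposited table).

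A list of 26 other genes of the ubiquitin and proteasome system included Mov34 and Tbp-1, described above, and the lid subunit CG13779 (Sem1). In the fat body IP 16 of 26 were at least 2-fold higher than in the Input, where 27.3% of all genes were, and 0 lower, where 10.1% were. The median log2 of the list there was 1.13, against 0.088 over all genes and 0.82 over well expressed genes, and without Mov34 and Tbp-1 14 of 24 were higher. Under median scaling 1 of 26 was higher and 1 lower in fat body, where 9.97% and 26.7% of all genes were. Under total scaling 0 were higher and 2 lower, where 4.18% and 43.2% of all genes were. In the glial IP 5 of 26 were higher, where 18.6% of all genes were, and 1 lower, where 19.6% were (median 0.55). Under median and total scaling 1 and 0 were higher there, where 9.52% and 7.14% of all genes were. In the neuronal IP 4 were higher, where 18.9% of all genes were, and 1 lower, where 13.0% were (median 0.47). There 1 was higher under each scaling, where 6.90% (median scaling) and 7.05% (total scaling) of all genes were. Between glia and fat body 16 were lower in the glial IP by the q of the authors' deposited table, where 31.6% of all genes were, and 1 was higher, where 12.9% were. Under total scaling 11 of these rows were lower and 6 higher, where 22.6% and 22.0% of all genes were. Between neurons and fat body 5 were lower and 1 higher in the neuronal IP by the q of the authors' deposited table, where 11.9% and 9.32% of all genes were. Between neurons and glia 0 were lower and 1 higher in the neuronal IP by the q of the authors' deposited table, where 15.3% and 15.5% of all genes were.

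The ubiquitin genes differed among themselves. RpS27A and RpL40, whose products are ubiquitin joined to a ribosomal protein, had 7745 and 6024 FPKM in the fat body IP against 2688 and 2079 in its Input. The log2 ratio was 1.53 for each, and total scaling shifts it by -1.49. Both belong to the ribosomal protein genes, whose median log2 in fat body was 1.56. RpS27A was lower in the neuronal IP than in its Input (2086 against 2642 FPKM, log2 -0.34). It was also lower in the glial IP than in its Input (2138 against 2696 FPKM, -0.33). RpL40 had a log2 of 0.029 in neurons and -0.15 in glia. Ubi-p5E, a polyubiquitin gene, had 581 FPKM in the neuronal IP against 193 in its Input (log2 1.58). It was higher in the neuronal IP than in the glial IP at 195 FPKM (q = 4.74e-05 in the authors' deposited table) and the fat body IP at 246 FPKM (q = 0.00155 in the authors' deposited table). Polyubiquitin genes are built of near-identical repeats, so the split of reads between Ubi-p5E and Ubi-p63E, which had 156 FPKM in the neuronal IP against 82.7 in its Input, is uncertain.

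The listed regulators of the stress response of proteasome genes differed from each other. cnc, the homologue of the mammalian Nrf factors that raise proteasome genes under stress, had 5.99 FPKM in the neuronal IP against 47.6 in its Input (log2 -2.80), 15.8 in the glial IP against 35.5 (-1.12) and 33.4 in the fat body IP against 41.5 (-0.31). It was lower in the neuronal IP than in the fat body IP (q = 0.00798 in the authors' deposited table), as well as in the glial IP against the fat body IP (q = 6.67e-07 in the authors' deposited table). maf-S, the small Maf partner of Cnc, had 205 FPKM in the neuronal IP against 70.2 in its Input (1.54), 165 against 62.1 in glia (1.398) and 127 against 69.2 in fat body (0.86). p47, a cofactor of the segregase TER94, had 291 FPKM in the fat body IP against 65.2 in its Input (2.14), and CG9588 had 98.4 against 27.7 (1.79). CG9588 also led the list in glia, with 80.4 FPKM in the IP against 24.8 in the Input (1.66). CG13779 (Sem1), a small lid subunit, was by mean level the highest row of the list after RpS27A and RpL40 and had 381, 473 and 590.2 FPKM in the IPs of neurons, glia and fat body and 219, 168 and 193 in the Inputs. CG8858 was nearly level in fat body, with 10.00 FPKM in the IP against 7.83 in the Input (0.32).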

How the data were processed

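RNA was prepared from 12 samples in 6 groups of 2 biological replicates, and per the labels' protocols the immunoprecipitation was run in 4 technical replicates that were pooled. According to the submitters' processing notes, TopHat2 2.0.6, Cufflinks 2.0.2, Cuffdiff 2.0.2 and the build BDGP5 were used. The authors deposited 6 columns of FPKM values on a linear scale, 1 per group, and 3 columns of q-values (adjusted p-values) for pairs of IP groups, per the file headers. How replicates were combined, the scaling between libraries, the annotation release and the treatment of multiply mapped reads are not given in the sources used here. Depth is unknown, so no interval was computed.

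Genes with at least 1 FPKM in a group were analysed with Python 3.11.15, numpy 2.4.6, pandas 2.3.3, scipy 1.17.1 and matplotlib 3.10.9. Log2 ratios used FPKM plus 1. Counts used a fold of 2, leaving out genes listed at 0, or the authors' q under 0.05. Cuffdiff scales libraries internally, so the direction of a ratio and the q can rest on different scales. Counting and scaling were tested on simulated data. Current names came from a name table by gene ID for 40 of 41 rows, and Pros28.1A was matched through a RefSeq synonym to Prosalpha4T1. Lengths, overlaps and neighbours came from the later BDGP6 annotation, of which no coordinates are used. Promoter and protein sequences were not used here, and the motif search planned for them was not run.

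The members and lists were chosen with earlier results of these data known. All members may be named. From the list of 26 ubiquitin and proteasome genes the 3 with the highest mean FPKM and the 2 largest rises and 2 largest falls of each IP over Input (at least 5 FPKM in a compared group) were named. Ubi-p63E and genes overlapping a member were named after their values were seen. The alternatives were a pseudocount of 0.1, no filter or 5 FPKM, 2 scalings, a fold of 1.5 and a q of 0.01. After the data were seen, the glia IP was also set against the other Inputs, the minimum was applied without the glia Input, and the list was rescaled.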

Additional observations from a re-analysis of the deposited data

Results flagged for a closer look

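Subunit rows whose log2 IP/Input differed in sign between cell types are given here, and none of these differences was tested. Rpn6 had -0.42 in neurons, 0.030 in glia and 0.55 in fat body. Rpn2 had -0.28 in neurons, 0.048 in glia and 0.50 in fat body. Rpn11 had -0.0093 in neurons, 0.29 in glia and 0.92 in fat body. Median scaling shifts every such value by -0.59 in neurons, -0.51 in glia and -0.87 in fat body, so these signs depend on the scale.

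Among the paralogues Rpt3R had 0.45 in neurons, -0.83 in glia and -0.60 in fat body. Prosbeta2R1 had -0.11 in neurons, -0.66 in glia and 0.071 in fat body, and Rpt4R had -0.15, -0.51 and 0.024 in neurons, glia and fat body. These rows had 2.24 FPKM or less in every group.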

How the results depend on the processing

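No paired analysis was possible because the table holds 1 value per group with the replicates combined, and for the same reason no replicate could be left out. Counts moved with the scale of the columns, the fold, the pseudocount and the minimum, and the cause was not tested. Values are given as median scaling, then total scaling. The median of the constitutive rows was -0.20 and -0.19 for neuron IP/Input, 0.18 and -0.060 for glia, 0.34 and -0.27 for fat body, -0.23 (0.039 under total scaling) for neuron over glia IP, -0.63 and -0.023 for neuron over fat body IP, and -0.30 and 0.035 for glia over fat body IP. Higher rows in IP/Input numbered 0 and 0 in glia and 1 and 0 in fat body, and lower rows 10 and 12 in glia and 2 and 4 in fat body. Of the rows past the q between glia and fat body IP, 1 and 15 were higher in glia, and 11 were lower under total scaling. Differences of IP/Input at most -1 numbered 1 and 0 for neurons minus fat body and 0 and 0 for glia minus fat body, and 4 were at least 1 for neurons minus glia under total scaling.

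With a pseudocount of 0.1, 7 rows were lower in neuron IP/Input, 10 in glia and 1 in fat body, 9 were higher in the glia than in the fat body Input, and 5 were at most -1 for glia minus fat body. With at least 5 FPKM, 2 were lower in glia IP/Input, 1 was lower in the neuron than in the glia IP, 1 each was higher in the glia Input than in the neuron and fat body Inputs, and 0 were at least 1 for neurons minus glia or minus fat body. With a fold of 1.5, neuron IP/Input had 4 higher and 2 lower, glia 17 higher and 10 lower, and fat body 2 lower. The glia Input then had 3 lower rows than the neuron Input and 8 higher than the fat body Input. Differences past that fold numbered 4 above and 2 below for neurons minus glia, 20 below for neurons minus fat body and 17 below for glia minus fat body. With a q under 0.01, 2 rows were lower in the neuron than in the glia IP and 1 than in the fat body IP. Against the other Inputs the glia IP had 0 higher and 1 lower rows and a median of 0.37. The remaining 123 values recomputed stayed within 1.5 times, or 0.1 on the log2 scale, of those reported.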
